A study of Mus musculus with 2 samples.

Results

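Z-disc, titin, costamere and dystrophin complex genes were described in gastrocnemius (GAS) muscle from Gde5 skKO and WT mice. The set was 40 named genes, and every probe on both arrays that carried one of these names or an older name was taken, 95 probes in all, out of 27555 genes with a probe. Two-colour Agilent whole mouse genome arrays compared both genotypes directly on each of 2 arrays. Cy3 marked WT and Cy5 marked Gde5 skKO on array 1, and array 2 had these dyes exchanged. The Gde5 skKO mice were HSA-Cre;Gde5 flox/flox on a C57BL/6 background, in which the human alpha-skeletal actin promoter drives Cre in skeletal muscle fibres, and WT mice were their Gde5 flox/flox littermates. Mice were males aged 15 weeks on a normal diet. The labels name 5 mice of each genotype, but not whether RNA was pooled, whether both arrays held the same RNA, or whether the mice had been given glucose or fasted. Other cells of the muscle keep Gde5 in this model.

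The Z-disc anchors the barbed ends of actin filaments through alpha-actinin cross-links and holds the ends of titin, the spring that runs from Z-disc to M-line. Desmin filaments, costameres and the dystrophin complex connect this scaffold sideways to the fibre membrane and the matrix outside it. Many inherited myopathies and muscular dystrophies arise from mutations in these genes, and several of the proteins have isoforms that differ between slow and fast fibres or between heart and skeletal muscle.

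Of the 40 genes, 38 of which were tested, Flnc, which encodes filamin C, an actin cross-linker of Z-discs and costameres, was the one gene higher on both arrays by the criterion used here, and none was lower. That is 2.63% higher against 1.59% of all genes tested, and 0 lower against 1.73%. Its log2 ratio of Gde5 skKO over WT was 0.58 on array 1 and 0.57 on array 2, a 1.49-fold mean difference. The call was lost after adjustment over all genes by limma's moderated test (adjusted p = 0.0511). An adjusted t-test of channel values did not call Flnc either, but it called 0 genes in either direction over all genes. The call was also lost with Feature Extraction p-values adjusted per array, while the mean log2 ratio of Flnc stayed between 0.56 and 0.58. Ldb3, which encodes the Z-disc protein cypher (ZASP), was not called on its brightest probe, but its probe for transcript variant 1 was 1.83-fold higher. Actn2, alpha-actinin-2, the isoform of all fibre types, was 1.46-fold higher in mean and passed the criterion on 1 array. The median log2 ratio of the set was -0.01 (array 1) and 0.05 (array 2), against 0.01 and 0.02 over all 13563 genes tested. Single genes went both ways, with 11 above 0 on both arrays, 12 below 0 on both and 15 of opposite sign.

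Promoter sequences are shown for the gene with the highest mean ratio (Flnc), the gene whose probes differed between transcript variants (Ldb3) and the gene with the lowest mean ratio (Dmd). They are RefSeq sequences of GRCm38.p6, from 250 bases before to 30 bases after an annotated start, with searched motifs in capitals. The Flnc window is chr6:29432903-29433182 on the plus strand, the Ldb3 window chr14:34588652-34588931 on the minus strand and the Dmd window chrX:82948620-82948899 on the plus strand. Each of these genes has 2 annotated windows, of which the more 5′ one is shown. The other Dmd window, at chrX:85048045-85048324, held none of the motifs, and the Dmd probe is not tied to either start. In Flnc the capitals mark an M-CAT element, the motif of TEAD factors, and in Ldb3 a CArG box, the motif of serum response factor. In Dmd they mark first a MEF2 site and then a CArG box.
Flnc: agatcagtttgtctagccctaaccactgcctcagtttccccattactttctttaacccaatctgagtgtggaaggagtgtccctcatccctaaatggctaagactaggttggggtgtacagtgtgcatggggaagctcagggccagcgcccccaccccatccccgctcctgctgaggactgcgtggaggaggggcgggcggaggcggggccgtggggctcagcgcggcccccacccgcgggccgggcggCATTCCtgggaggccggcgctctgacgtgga
Ldb3: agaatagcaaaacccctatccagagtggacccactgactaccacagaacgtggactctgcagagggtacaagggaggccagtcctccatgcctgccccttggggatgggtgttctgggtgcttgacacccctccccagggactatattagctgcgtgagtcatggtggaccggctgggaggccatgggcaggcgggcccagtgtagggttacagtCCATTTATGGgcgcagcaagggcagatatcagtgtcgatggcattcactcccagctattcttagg
Dmd: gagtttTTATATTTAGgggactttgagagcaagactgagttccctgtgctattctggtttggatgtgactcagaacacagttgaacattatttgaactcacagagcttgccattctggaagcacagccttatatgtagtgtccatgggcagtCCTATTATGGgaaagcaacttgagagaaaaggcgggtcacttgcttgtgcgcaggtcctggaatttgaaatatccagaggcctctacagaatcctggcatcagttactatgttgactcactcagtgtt

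Motifs of muscle transcription factors were counted on both strands in windows from 250 bases before to 50 bases after each start. RefSeq windows were matched by symbol for 28 of the 40 genes, 35 windows in all. A CArG box was in 5 of these 35 windows (14.3%), in Dmd, Ldb3, Myom1 and Vcl, against 1.63% of all 32851 windows. A MEF2 site was also in 5 windows (14.3%), in Capn3, Dmd, Myoz2, Synpo2 and Ttn, against 3.19% of all windows. The shorter motifs were common everywhere. The M-CAT element CATTCC was in 9 windows (25.7%) against 14.7% of all, and the muscle E-box CAGCTG was in 8 windows (22.9%) against 16.3%. Both Ldb3 windows overlap and share a CArG box, and both Flnc windows overlap and share an M-CAT element. Each of these sites was counted once per window. By gene, 4 of 28 had a CArG box. The set holds well-known muscle genes, and a motif match is a description of these letters, with no measurement of binding in these mice. Genes with a CArG box had ratios on both sides of 0, Vcl with a mean log2 ratio of 0.27 and Dmd with -0.41.

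Each ratio is the deposited Feature Extraction log ratio turned to Gde5 skKO over WT and put on the log2 scale, and the brightest probe stood for its gene. A gene was tested when, on each array, at least 1 channel of that probe was well above background. A call required a Feature Extraction p under 0.05 on each array and 1 direction. That p-value covers the error of spots within a hybridization and not the spread between mice, and mice were not tested against each other. The median Feature Extraction error of the genes' log2 ratios was 0.20 on array 1 and 0.20 on array 2. The smallest ratio of the set that passed on an array was 0.54 in size on array 1 and 0.43 on array 2, on the brightest probes.

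The deleted gene (Gpcpd1, under its older name Prei4) was low on 3 of its 4 probes. Its log2 ratios were -2.69 and -3.24 on 1 probe, -3.07 and -3.29 on another and -2.59 and -3.27 on one more, all toward the 3′ end of the gene. A probe farther 5′, the brightest, had -0.05 and -0.47, and which exon each probe lies in was not analysed here.

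Of the 40 genes, 2 were not tested. Sntb1, which encodes beta-1-syntrophin, and Trim55, a titin-linked ubiquitin ligase, were not well above background. By limma's moderated test, 5 genes of the set were higher and 3 lower at an unadjusted p under 0.05, against backgrounds of 4.26% and 4.31%, and 0 were past the threshold in either direction after adjustment over all genes, where 0.295% of all genes were higher and 0.523% lower. The signs on the arrays were mixed. The ratio was above 0 on both arrays for 11 genes (28.9%, against 29.2% of all genes), below 0 on both for 12 (31.6%, against 25.3%), and of opposite sign for the other 15. The mean log2 ratio was within 0.25 of 0 for 26 genes (68.4%, against 75.3% of all genes) and within 0.5 for 36 (94.7%, against 93.9%). The probes were bright, with a median signal at the 92.3 percentile of all genes tested.

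**Figure D1:**
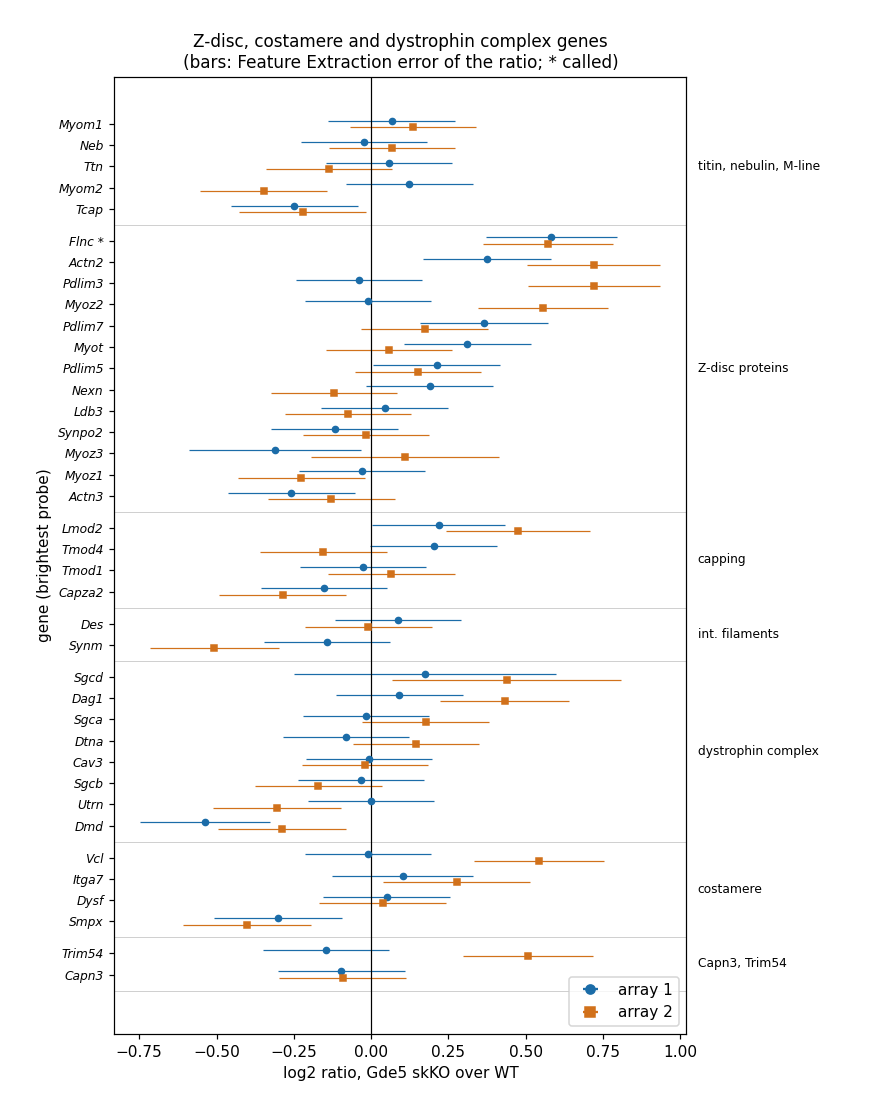
Log2 ratio of Gde5 skKO over WT of the 38 tested genes by role (x axis) on array 1 (circles) and array 2 (squares), with bars for the Feature Extraction error of each ratio and an asterisk for the called gene. Flnc lies at 0.58 and 0.57, and Actn2, Pdlim3, Myoz2, Vcl and Trim54 lie farther right on array 2 than on array 1.

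Array 2 gave more single-array passes within the set than array 1. On array 2 alone 8 genes passed higher, among them Flnc, against 7.16% of all genes, and 1 passed lower against 6.71%. On array 1 alone 1 gene passed higher, again Flnc, against 6.82% of all genes, and 1 passed lower against 5.32%. The genes higher on array 2 and not on array 1 were Actn2, Pdlim3, Myoz2, Lmod2, Dag1, Vcl and Trim54. Of these, Pdlim3, Myoz2, Vcl and Trim54, had a ratio under 0 on array 1. Each genotype carried the other dye on array 2, and the labels do not say whether glucose or fasting differed between the arrays. Dye, hybridization, RNA and any such difference therefore cannot be told apart for a gene that passed on 1 array. The median difference in size between a gene's ratios on both arrays was 0.19 in the set and 0.22 over all genes tested. The correlation across genes of array 1 with array 2 (Pearson's r) was 0.46 for the 38 genes, -0.08 for all 13563 tested and 0.28 for the 12312 with signal in both channels. These are descriptions with no test, since genes on the same arrays are not independent replicates.

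**Figure D2:**
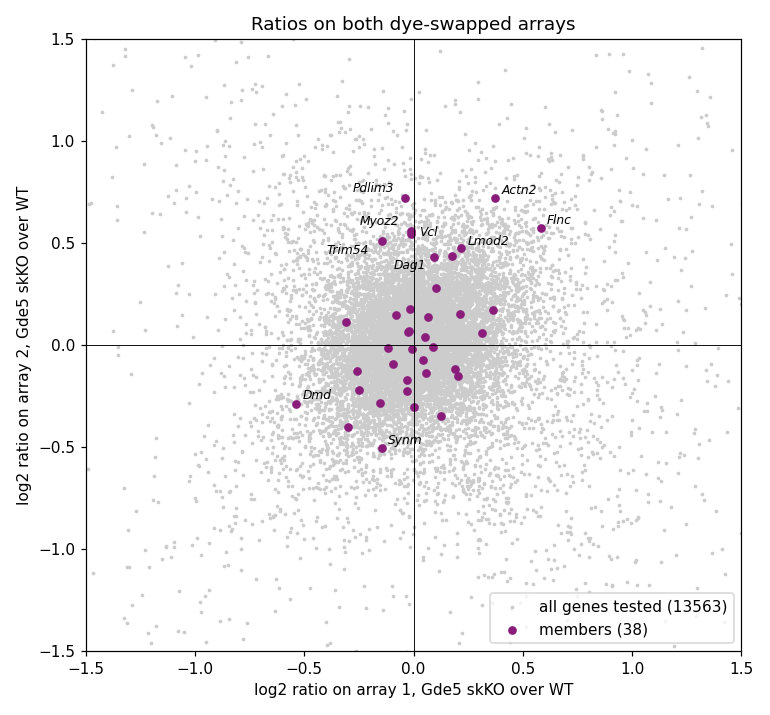
Log2 ratio of Gde5 skKO over WT on array 1 (x axis) against array 2 (y axis) for all 13563 genes tested (grey) and the 38 genes of the set (purple), with names for those past the p-value threshold on at least 1 array; 231 genes lie outside the plotted range of 1.5 on either side of 0. Flnc is high on both axes, Actn2 lies above it on array 2, and Dmd lies lowest on array 1.

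Flnc was called on its brightest probe, on mm8 chr6:29411643-29411702. Its log2 signal was 13.55 for Gde5 skKO and 12.96 for WT on array 1, and 13.67 and 13.09 on array 2. The p-values were 0.00572 on array 1 and 0.00662 on array 2, and the error of either ratio was 0.21. The Gde5 skKO channel was thus the brighter one under both dyes. With limma's moderated test the mean log2 ratio was 0.56 with an adjusted p of 0.0511, which misses the threshold. A second Flnc probe at chr6:29411119-29411178 was also called, with ratios of 0.55 and 0.67. A probe about 14.5 kb from the most 5′ one had ratios of 0.29 and 0.36, and the most 5′ probe, for transcript variant 2, had ratios of 0.33 and 0.45. All 4 Flnc probes were above 0 on both arrays, with means between 0.33 and 0.61, and both called probes lie toward the 3′ end. By limma the means were smaller for the uncalled probes, 0.11 for the most 5′ one and 0.15 for the next. The called probes had limma means of 0.54 and 0.56.

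The alpha-actinins form the cross-links of the Z-disc, and Actn3 is the isoform of fast glycolytic fibres. Actn2 had log2 ratios of 0.37 and 0.72 with p-values of 0.0706 and 0.00079, and a limma adjusted p of 0.123. Actn3 had ratios of -0.26 and -0.13. Both arrays put Actn2 above Actn3. The difference between the log2 ratios was 0.63 on array 1 with an error of 0.29, and 0.85 on array 2 with an error of 0.30.

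The calsarcins (myozenins) tie alpha-actinin to calcineurin, and Myoz2 is the slow fibre and heart form. Myoz2 had log2 ratios of -0.01 and 0.56, and Myoz1, the fast fibre form, had -0.03 and -0.23. Myoz3, another fast fibre form, had -0.31 and 0.11. The difference of Myoz2 over Myoz1 was 0.02 on array 1 and 0.78 on array 2, so the arrays did not give one answer for this pair.

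PDZ and LIM domain proteins bind alpha-actinin at the Z-disc. Pdlim3 (ALP) had log2 ratios of -0.04 and 0.72, Pdlim7 (enigma) 0.37 and 0.17, and Pdlim5 (ENH) 0.21 and 0.15. None of these was called. The Pdlim7 probes did not move as one, with means between -0.25 and 0.27 over 4 probes, whereas both Pdlim3 probes had means near each other, 0.30 and 0.34.

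Ldb3, another PDZ and LIM protein, had probes that differed from each other. The deposited annotation ties its brightest probe, on mm8 chr14:33390595-33390654, to transcript variant 7, and this probe had log2 ratios of 0.04 and -0.07. Another variant 7 probe at chr14:33390882-33390941 had -0.10 and 0.30. The probe tied to variant 1, at chr14:33358559-33358618 and 32.3 kb from the most 5′ one on the minus strand, had 0.82 and 0.93. Its log2 signal was 11.65 against 10.83 on array 1 and 11.77 against 10.85 on array 2, Gde5 skKO against WT, so the genotypes differed under both dyes. The p-values were 0.000165 and 2.83e-05, and limma's adjusted p over all probes was 0.012. The variant 1 probe exceeded the brightest probe by 0.78 on array 1 with an error of 0.30, and by 1.00 on array 2 with an error of 0.30. Ldb3 is known for splice forms with and without the C-terminal LIM domains. Which exon each probe lies in was not analysed here, and the relative amounts of the forms cannot be read from the brightness of different probes.

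Other proteins of the Z-disc were not called. Myot (myotilin), which binds filamin C and alpha-actinin and bundles actin, had log2 ratios of 0.31 and 0.06. Nexn (nexilin), an actin binding protein, had 0.19 and -0.12, and Synpo2 (myopodin) had -0.12 and -0.02. The 13 genes of the alpha-actinin, calsarcin and Z-disc protein list had a median mean log2 ratio of 0.18, with 5 above 0 and 3 below 0 on both arrays.

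Titin, nebulin and their partners gave small ratios on their brightest probes. Ttn (titin) had log2 ratios of 0.06 and -0.14, Neb (nebulin, the ruler of the thin filament) -0.02 and 0.07, and Tcap (telethonin, which caps titin at the Z-disc) -0.25 and -0.22. Of the M-line proteins that cross-link myosin, Myom1 had 0.07 and 0.13 and Myom2, a fast fibre form, 0.12 and -0.35. All of these were within 0.25 of 0 in mean, and 0 of the 5 were called.

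The other probes of the giant genes mostly lay higher than the brightest ones. Over 9 Ttn probes the mean log2 ratio ranged from -0.05 to 0.59, and 7 were above 0 in mean, 6 of them on both arrays. The most 5′ Ttn probe, at mm8 chr2:76765947-76766006, had 0.79 and 0.39 with p-values of 0.000269 and 0.0596, and so missed the criterion on array 2. The most 3′ probe had 0.26 and 0.30, and its neighbour, the brightest, 0.06 and -0.14. There was no steady trend along the gene. All 5 Neb probes were above 0 in mean, between 0.02 and 0.46, and none was called. Probes of 1 gene share its transcripts and are not replicates.

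**Figure D3:**
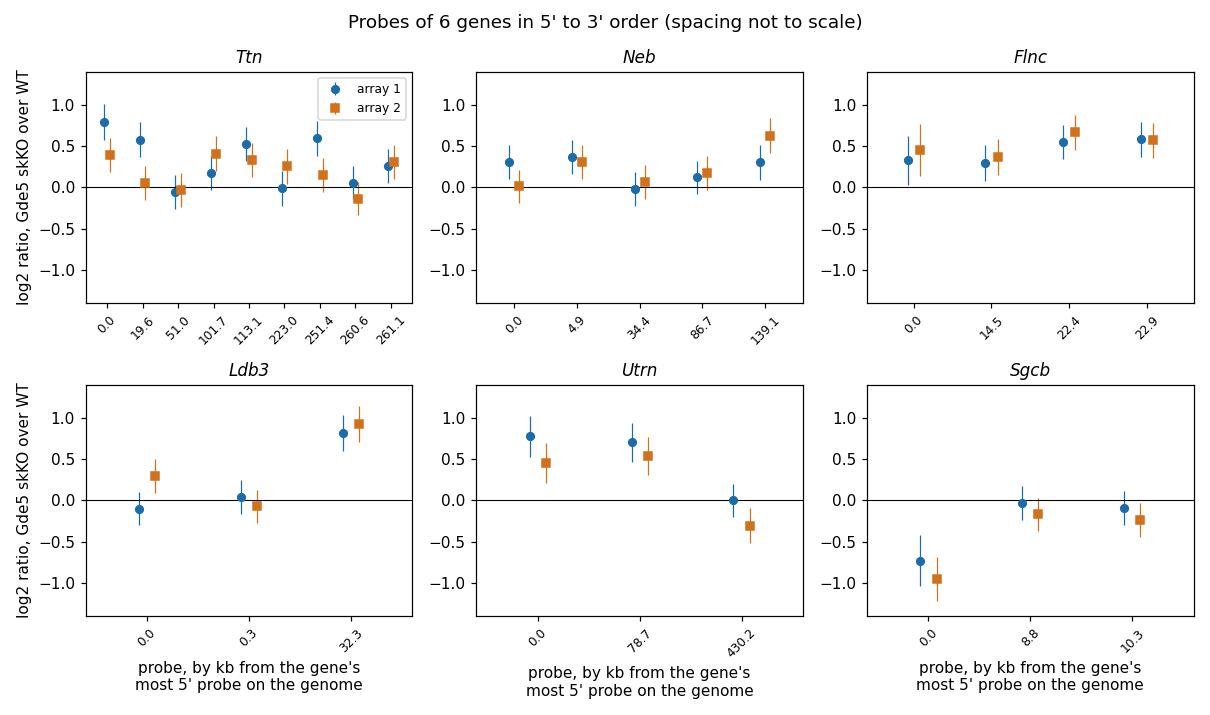
Log2 ratio of Gde5 skKO over WT (y axis) on array 1 (circles) and array 2 (squares), with bars for the Feature Extraction error, for the probes of Ttn, Neb, Flnc, Ldb3, Utrn and Sgcb that passed the background filter, ordered from 5′ to 3′ with the distance in kb from the most 5′ probe beneath. The variant 1 probe of Ldb3 lies at 0.82 and 0.93 while the other 2 lie between -0.10 and 0.30, and Utrn and Sgcb each have a probe apart from their 3′ probe.

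Proteins that cap or length-control actin filaments gave 0 calls among 4 genes. Lmod2 (leiomodin-2, which elongates thin filaments at the pointed end) had log2 ratios of 0.22 and 0.47. By limma its mean was 0.14, against 0.35 from Feature Extraction. The tropomodulins that cap the pointed end were close to 0 in mean, Tmod1 with -0.03 and 0.07 and Tmod4, the skeletal form, with 0.20 and -0.15. Capza2, a subunit of the capping protein of the barbed end, had -0.15 and -0.29.

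Of the intermediate filament genes, Des (desmin) had repeated spots that show the precision within an array. Over its 9 spots on array 1 the log2 ratio was 0.09 ± 0.04 (SD), and over its 10 spots on array 2 it was -0.01 ± 0.06 (SD). These are technical repeats on 1 array, and desmin was near 0 on both. Synm (synemin), which links desmin to the dystrophin complex, had -0.14 and -0.51 on its brightest probe and passed on array 2 alone. The other Synm probe had -0.18 and 0.05 and passed on neither array.

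Dmd (dystrophin), the actin binding core of the complex, had the lowest mean of the set, -0.41. Its log2 signal was 10.40 for Gde5 skKO against 10.94 for WT on array 1, and 10.75 against 11.04 on array 2. The probe was spotted repeatedly, and the log2 ratio was -0.54 ± 0.06 (SD) over 9 spots of array 1 and -0.29 ± 0.05 (SD) over 10 spots of array 2. All spots were below 0. The Feature Extraction p was under 0.05 on 9 of 9 spots of array 1 and on 0 of 10 spots of array 2. By limma the mean was -0.33 with an unadjusted p of 0.0131 and an adjusted p of 0.341. The other 3 Dmd probes were not well above background, so the ratio rests on the probe at mm8 chrX:81456898-81456957.

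Utrn (utrophin), the paralogue of dystrophin at the neuromuscular junction, had probes that disagreed. The brightest, most 3′ probe had log2 ratios of 0.00 and -0.30. The probe at mm8 chr10:12424101-12424160 was called higher, with 0.71 and 0.54, and the most 5′ probe had 0.78 and 0.46. The called probe exceeded the 3′ probe by 0.71 with an error of 0.31 on array 1 and by 0.84 with an error of 0.31 on array 2. By limma the called probe's mean was 0.31 with an adjusted p of 0.382. The deposited annotation gives no transcript variant for these probes.

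The other members of the dystrophin complex were not called on their brightest probes. Dag1 (dystroglycan, the laminin receptor) had log2 ratios of 0.09 and 0.43. Among the sarcoglycans, which steady dystroglycan in the membrane, Sgca had -0.02 and 0.18, Sgcb -0.03 and -0.17, and Sgcd, which did not have signal in every channel, 0.17 and 0.44. The errors of the Sgcd ratios were 0.42 and 0.37, and its mean of 0.31 became 0.01 by limma. Dtna (alpha-dystrobrevin) had -0.08 and 0.14, and Cav3 (caveolin-3) -0.01 and -0.02. Of the 8 genes tested here, 2 were above 0 and 4 below 0 on both arrays. A cDNA clone probe named Sgcb, at mm8 chr5:73923289-73923348, was called lower, with -0.73 and -0.96, and is named after its values were seen. By limma its mean was -0.22 with an adjusted p of 0.633, and the probes of the Sgcb mRNA had means of -0.10 and -0.16.

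Counted probe by probe, 82 of the 95 probes passed the filter. Of these, 4 were called higher, namely 2 of Flnc, 1 of Ldb3 and 1 of Utrn, against 1.48% of all probes, and 1 of Sgcb was called lower against 1.58%.

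Costameres couple the Z-disc to the membrane. Vcl (vinculin), which ties integrins to actin, had log2 ratios of -0.01 and 0.54, and Itga7, the integrin that binds laminin in muscle, had 0.10 and 0.28. Dysf (dysferlin), needed for membrane repair, had 0.05 and 0.04. Smpx, a small muscle protein at costameres, was below 0 on both arrays, at -0.30 and -0.40 with p-values of 0.144 and 0.0525. None of the 4 was called. Capn3 (calpain 3), a protease held by titin, had -0.10 and -0.09, and Trim54 (MuRF3), a ubiquitin ligase of the sarcomere, had -0.15 and 0.51.

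Genes of the same structures outside the set were listed from general knowledge, but with earlier results of these data known. Of 99 such genes 87 were tested, 5 of them (5.75%) called higher and 2 (2.30%) lower, against 1.59% and 1.73% of all genes. The 5 higher genes were all in the list of other sarcomere and Z-disc proteins, where 31 were tested. Csrp3 (muscle LIM protein, of the Z-disc and of slow fibres) had log2 ratios of 0.81 and 0.84. Mybpc1, slow myosin binding protein C, had 0.63 and 0.76. Fhl1, a LIM protein, had 0.78 and 0.42. Klhl40, which stabilises nebulin and leiomodin-3, had 0.58 and 0.49, and Myom3, a slow fibre myomesin of the M-line, had 0.51 and 0.44. By limma, Csrp3, Mybpc1 and Fhl1 had adjusted p-values of 0.0136, 0.0276 and 0.0442, and Klhl40 and Myom3 had 0.0987 and 0.157. The median of that list was 0.07 in mean, and its genes lay between -0.40 and 0.82.

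Lower calls lay among other costamere and membrane repair proteins, 2 of 27 tested. Sorbs2 (ArgBP2, a Z-disc and focal adhesion adaptor) had log2 ratios of -0.97 and -1.31, and a limma mean of -0.71 with an adjusted p of 0.025. Vasp, which elongates actin at focal adhesions, had -0.65 and -0.44, and a limma mean of -0.36 with an adjusted p of 0.253. No gene was called among 8 other capping proteins, 5 other intermediate filament proteins or 16 other genes of the dystrophin complex and dystroglycan glycosylation. In that last list the median was 0.18, or 0.09 by limma, and 9 genes were above 0 on both arrays against 4 below, where all genes had shares of 29.2% and 25.3%.

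**Figure D4:**
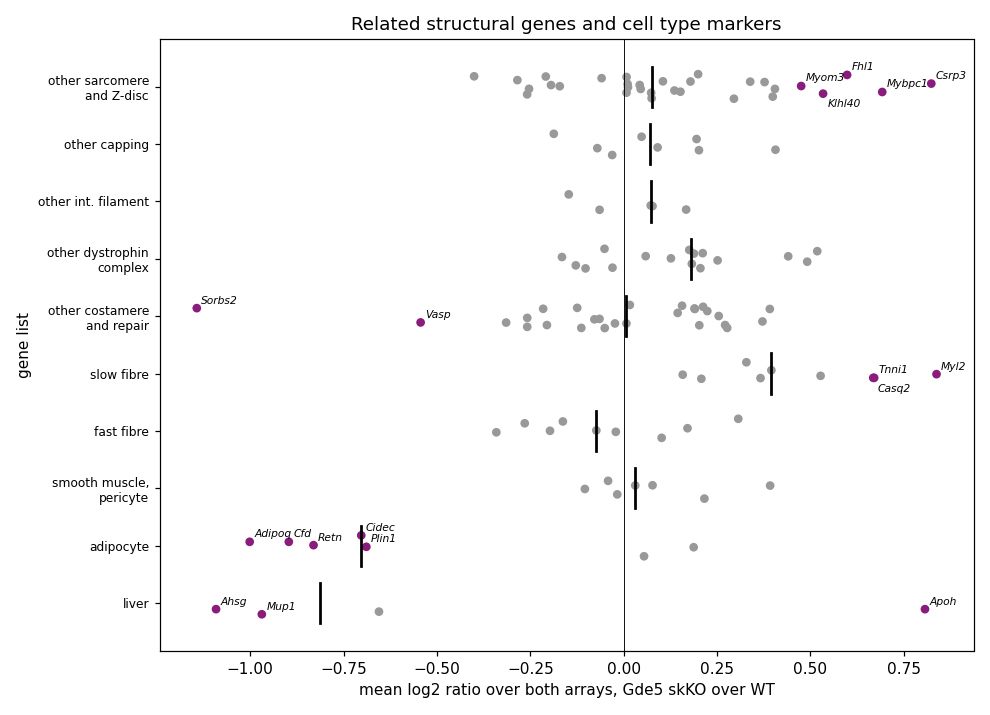
Mean log2 ratio of Gde5 skKO over WT over both arrays (x axis) of each tested gene in 5 lists of related structural genes and 5 lists of cell type markers (y axis), with called genes named in purple and the median of each list as a black line. The 5 called sarcomere and Z-disc genes lie between 0.48 and 0.82, the slow fibre median lies at 0.40 and the fast fibre median at -0.07.

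Some markers of slow fibres were also called higher. Of 10 slow fibre markers 9 were tested, and 3 were called, Myl2 with log2 ratios of 0.80 and 0.87, Tnni1 with 0.64 and 0.70 and Casq2 with 0.58 and 0.76. Their limma adjusted p-values were 0.0104, 0.049 and 0.0935. A further 5 were above 0 on both arrays without a call, among them Myh7, the slow myosin, with 0.30 and 0.36, and Atp2a2 had opposite signs, 0.44 and -0.12. The median of the list was 0.55 on array 1 and 0.36 on array 2. The summed signal of the slow markers, of which Myl3 was the brightest, was 100867 in WT and 143304 in Gde5 skKO on array 1, and 103741 and 140370 on array 2. No probe carried the name Myh7b. Fast fibre markers gave 0 calls among 9, with a median of -0.07, and their sum, led by Tnni2, was 497162 in WT and 484186 in Gde5 skKO on array 1, and 464814 and 442793 on array 2. Of the genes described, Actn2, Myoz2, Csrp3, Mybpc1 and Myom3 are also used by slow fibres. The part of fibre type in the ratios of Flnc, Ldb3 and Actn2 was not tested. In a whole muscle, a different number of fibres of a type and a different amount of RNA per fibre cannot be told apart.

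The defining markers of skeletal muscle were all measured, 8 of 8, with Acta1 the brightest and 0 called, and their sum was 510112 in WT and 519428 in Gde5 skKO on array 1, and 489479 and 480324 on array 2. Myh3, embryonic myosin, was the one called gene among 6 tested markers of satellite cells and regenerating fibres, with log2 ratios of 1.95 and 1.49, and limma put its mean at 0.86 with an adjusted p of 0.0135. Of 7 adipocyte markers tested, 5 were called lower, namely Adipoq, Cfd, Retn, Cidec and Plin1. By limma, adjusted p-values were 0.0189 for Adipoq and 0.0115 for Cfd, and Retn (0.321), Cidec (0.0902) and Plin1 (0.302) missed the threshold, with the mean moving from -0.83 to -0.34 for Retn and from -0.69 to -0.33 for Plin1. The others were not called, Lipe with 0.27 and 0.10 and Fabp4 with 0.13 and -0.02. Lep was not well above background, and the summed signal, led by Fabp4, was 43926 in WT and 43410 in Gde5 skKO on array 1, and 45224 and 41311 on array 2. Smooth muscle and pericyte markers, which stand for cells that also use vinculin, gave 0 calls among 7, with a sum led by Acta2 of 31227 in WT and 37203 in Gde5 skKO on array 1 and 32135 and 38351 on array 2. Of the liver markers 4 of 9 were tested, with Ahsg and Mup1 lower, Apoh higher and Alb not called at -1.03 and -0.28, and Apoa1, Apoa2, Ttr and Fga were not well above background. The liver sum, led by Mup1, was 2645 in WT and 1548 in Gde5 skKO on array 1, and 2654 and 1564 on array 2. By limma, Mup1 passed with an adjusted p of 0.0205, and Ahsg (0.0805) and Apoh (0.263) did not. Of 6 endothelial markers Kdr was called higher, with a limma adjusted p of 0.196. Markers of tendon, leukocytes, blood and nerve gave 0 calls. The part of these other cells in the ratios of the scaffold genes was not tested.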

How the data were processed

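GAS muscle RNA of WT and Gde5 skKO mice was measured on 2 dye-swapped arrays of 1 slide, so slide could not be used as a block. The authors deposited Feature Extraction 9.5.3.1 output, which subtracts background, normalizes the dyes and lists, for every spot, the log10 Cy5 to Cy3 ratio, the error of that ratio (a score from the software's error model), its p-value and both intensity channels. The deposited series table repeats the log10 ratios, and was used as an alternative. From these, log2 ratios of Gde5 skKO to WT were averaged over repeated spots. Controls, outlier spots (195 and 221 of 43379) and spots beside debris (11 and 0, where the local background exceeded the signal by a factor of 1.25, as decided with the values in view) were left out. On array 1, 53.2% (Gde5 skKO) and 45.6% (WT) of spots were well above background, and on array 2 44.6% and 47.4%. Precision is limited by there being 2 arrays.

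Of 41069 probes, 24239 were named by accession through RefSeq, 6259 by symbol, 2418 by synonym and 94 as members or their aliases, and 8059 kept the array's name. Probe positions are on mm8, from the array annotation. Named genes were members called, at 0.5 or more in mean size or with disagreeing probes, and called genes of the lists. Others are given for their role. The members and lists were chosen with earlier results of these data known. Alternatives used limma 3.58.1 under R 4.3.3 (normexp with an offset of 50, loess, moderated test with Benjamini-Hochberg adjustment), the methods' t-test of channel values, other thresholds and filters, and each array alone. Python 3.11.15 did the rest. The steps were tested on simulated data with planted log2 changes of 1.5 and noise from the Feature Extraction errors. Smaller changes were not covered.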

Additional observations from a re-analysis of the deposited data

How the results depend on the processing

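The count of genes of the set called higher (1 as reported) and lower (0) moved with the test. It was 5 higher and 3 lower by limma unadjusted, 0 higher by limma adjusted (Flnc, adjusted p = 0.0511), 2 lower by the methods' t-test unadjusted, 0 higher by that test adjusted, and 0 higher with Feature Extraction p-values adjusted per array. Over all probes of a gene, where a called probe sufficed if none was called the other way, it was 3 higher and 1 lower. Over single probes, chosen after seeing the data, it was 4 and 1. On each array alone it was between 1 and 8 higher, with 8 on array 2, and 1 lower. Over all genes, 215 higher and 235 lower became 578 and 584 by limma unadjusted, 40 and 71 by limma adjusted, 617 and 571 by the t-test, 0 and 0 by that test adjusted, 107 and 127 at p under 0.01, and 50 and 76 with p adjusted per array. Each array alone gave 925 to 971 higher and 721 to 910 lower. The 7 calls among related genes became 20, 4, 16, 0, 3 and 2 in the same order, and 13 to 17 on each array alone. Where counts moved, the cause was not tested beyond the change of threshold or arrays. The median log2 ratio of the set, 0.03, stayed between -0.01 and 0.06 over all 16 alternatives, and no called result reversed. Uncalled genes near 0 could change sign. Averaged over all probes of a gene, Utrn went from -0.15 to 0.36 and Ldb3 from -0.02 to 0.32. Both then counted as higher through 1 called probe each, and these averages were not tested. With normexp and loess Ttn went from -0.04 to 0.02 and Ldb3 to 0.03. Sizes of uncalled genes moved too with normexp and loess. Lmod2 fell from 0.35 to 0.14, Sgcd from 0.31 to 0.01 and Trim54 from 0.18 to 0.04, while Neb rose from 0.02 to 0.06. The deleted gene's mean was -0.26 on its brightest probe, -2.33 over all its probes and -2.93 on the probe brightest in WT. Each log ratio already pairs the genotypes within an array, and limma's test used these paired ratios. The methods' t-test was unpaired and did not use the pairing of channels within an array. No further pairing was possible, because the arrays form 1 group with no other group to share their numbers. Both arrays may hold the same RNA, and a Feature Extraction error of about 0.20 limits what an array can call.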
